A study of Mus musculus with 8 samples.

Results

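Mitochondrial fatty acid oxidation and ketone metabolism was followed through 32 genes, chosen by symbol from the 54532 genes of the deposited count table: the carnitine shuttle, the acyl-CoA dehydrogenases, the later enzymes of the β-oxidation cycle, the carriers that take its electrons, and the enzymes that use ketone bodies. RNA was measured in MA-10 cells, a progesterone-making line from a Leydig tumour of the mouse, in 4 libraries of WT cells and 4 libraries of MTP KO cells. MTP (microsomal triglyceride transfer protein, gene Mttp) loads lipid onto apolipoprotein B, and the comparison asked which transcripts differ when the gene is disrupted. All 8 cultures, WT and KO, had grown for 48 h and had received 0.5 mM 8-BrcAMP, a cAMP analog that stands in for luteinizing hormone, for 3 h, so no unstimulated state is part of the comparison. KO cells were made with Cas9 protein and guide RNAs and kept as clones. The sources used here do not name the clone that was sequenced, and a difference between WT and KO cannot be told apart from a difference between 1 clone and its parent line. The libraries of a group are numbered in the labels, whose genotype field reads wild type for every library, so the groups follow the titles. The p-values below measure the spread between these libraries.

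Fatty acids enter the mitochondrial matrix as carnitine esters and are shortened in turns of dehydrogenation, hydration, a second dehydrogenation and thiolytic cleavage, each turn giving an acetyl-CoA and electrons for the respiratory chain. Malonyl-CoA, the building block of fatty acid synthesis, blocks the entry step, so that synthesis and oxidation do not run together at full rate. Ketone bodies are made from acetyl-CoA mainly in liver and are turned back into acetyl-CoA in other tissues, while a cytosolic enzyme can activate acetoacetate for lipid synthesis. In Leydig cells, acetyl-CoA also feeds the cholesterol from which steroids are made, and the side chain of cholesterol is cut inside the same mitochondria.

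The libraries held between 15075610 and 16321292 counts in WT and between 14927989 and 18394797 in KO cells (exact permutation test, 2-sided, p = 0.2), and 13185 genes passed the filter on low counts. Mttp, the targeted gene, had 12.9, 11.9, 13.3 and 14.4 CPM (counts relative to the TMM-scaled size of the library) in WT and 5.09, 4.52, 6.75 and 7.13 CPM in KO libraries, so the groups did not overlap and transcripts of the disrupted gene were still counted in KO cells. Of 10 Leydig markers all were detected and 6 rose, where 21.7% of all tested genes rose. A rise of more than 0.5 on the log2 scale was seen in 5 of the 10, and in 7.35% of all tested genes. Their sums were 9657 to 10720 CPM in WT and 10400 to 11440 CPM in KO libraries. Star, the most abundant of them, neither rose nor fell and stood at 5685 and 5290 CPM (edgeR adjusted p = 0.1217). The macrophage markers summed to 16.6 to 21.7 CPM in WT and 6.76 to 9.31 CPM in KO libraries. Only 2 of these 6 markers passed the filter, and both fell, where 21.1% of all tested genes fell. Cd68 went from 11.1 to 3.42 CPM and Csf1r from 7.74 to 4.50 CPM, while Adgre1, Ptprc and Lyz2 were at 0 in every library. The 5 endothelial markers summed to 182.4 to 209.6 CPM in WT and 100.3 to 119.5 CPM in KO libraries, nearly all from Cdh5, with Vwf at 0. The 6 myoid and fibroblast markers summed to 24.1 to 27.3 and 12.4 to 15.1 CPM with Dcn at 0. Of these, Cnn1 went from 12.1 to 1.90 CPM and Des from 12.9 to 11.5 CPM. The 7 Sertoli markers summed to 216 to 233 and 352 to 397 CPM with Cldn11 at 0. Of these, Rhox5 went from 167 to 321 CPM, while Sox9 stood at 54.8 and 53.9 CPM. The 6 germ cell markers summed to 1.63 to 4.16 and 2.90 to 4.81 CPM with Tnp1 at 0. All cultures were of the MA-10 line, so a marker sum here does not show that cells of another type were present. The part of other cell types in the results below was not tested. In bulk RNA, fewer cells of a type cannot be told apart from less RNA per cell.

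Most of the oxidation genes were higher in KO cells, by small steps. Of the 32 genes, 31 passed the filter and 20 of these rose, 1 fell and 10 did neither (edgeR quasi-likelihood test, adjusted p below 0.05 over all tested genes), where 21.7% of all tested genes rose and 21.1% fell. The same 2 shares of all tested genes stand beside the counts of the smaller role groups below. The median log2 fold change of the 31 genes, KO minus WT, was 0.22, against -0.0019 over all tested genes, and 27 of the 31 values were above 0, as were 49.6% of all values. The steps ranged from -0.22 for Acad10 to 0.89 for Aacs, and Aacs was the only gene that rose past the study's fold limit of 0.5 on the log2 scale (7.35% of all tested genes rose past it, and 8.44% fell past it, but none of the 31). Summed over the 32 genes, the libraries held 3967, 4051, 4057 and 4131 CPM in WT and 4859, 4893, 4798 and 4799 CPM in KO cells. Every KO sum lay above every WT sum, and the ratio of the group means was 1.19.

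The replicates of these genes lay close together. The coefficient of variation between WT libraries had a median of 5.18% over the 31 genes and 8.41% over all tested genes, and between KO libraries it had a median of 3.59% and 7.52%. In WT it ran from 0.615% for Etfdh (145 CPM) to 18.9% for Bdh1 (7.61 CPM). The 31 genes were not matched by level to all tested genes, here or in the shares without overlap below. All 4 KO libraries were above all 4 WT libraries for 20 of the 31 genes, against 19.7% of all tested genes, and below them for Acad9. These 20 were the genes that rose, except that Eci1 rose although its groups overlapped, and that Acadvl, whose groups did not overlap, missed the threshold.

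**Figure D1:**
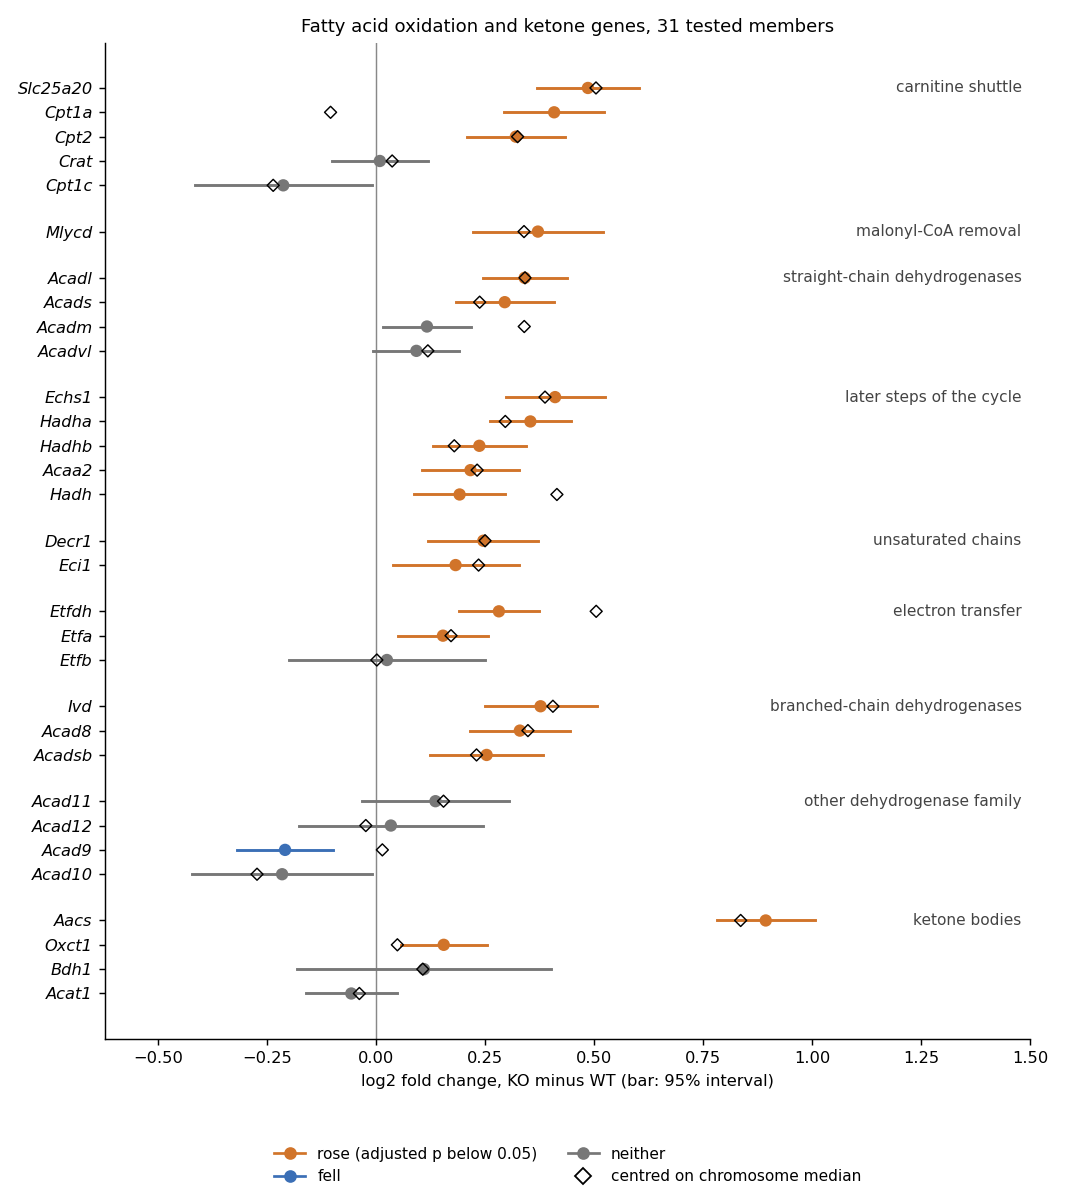
The horizontal axis gives the log2 fold change, KO minus WT, of the 31 tested genes, grouped by role; filled circles with 95% intervals are the edgeR values, coloured by call, and open diamonds are the same values after the median of the gene's chromosome was set to 0. The 20 genes that rose spread over 8 of the 9 role groups, Aacs stands apart at 0.89, and the diamonds leave the circles furthest for Cpt1a and for Acadm, Hadh, Etfdh and Acad9.

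Chromosomes 3 and 19 moved as wholes in this comparison, and 5 of the genes lie on them. The median log2 fold change was -0.22 over the 631 tested genes of chromosome 3, which also carries Mttp, and 0.51 over the 446 tested genes of chromosome 19, while the medians of the other chromosomes that carry members lay between -0.05 and 0.11. Acadm, Hadh, Etfdh and Acad9 lie on chromosome 3 and Cpt1a on chromosome 19. On the other chromosomes 17 of 26 tested members rose and none fell by edgeR, with a median of 0.23. When each chromosome was centred on its own median, 19 of the 31 rose, 1 fell and the median was 0.23, with 19.3% of all tested genes higher and 19.6% lower. The genes behind these counts differed in part. Acad10 fell in place of Acad9, Cpt1a and Oxct1 no longer rose, and Acadm did. For the genes of chromosomes 3 and 19, both values are given below, and a change of the gene itself cannot be told apart from one that its chromosome shares.

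**Figure D2:**
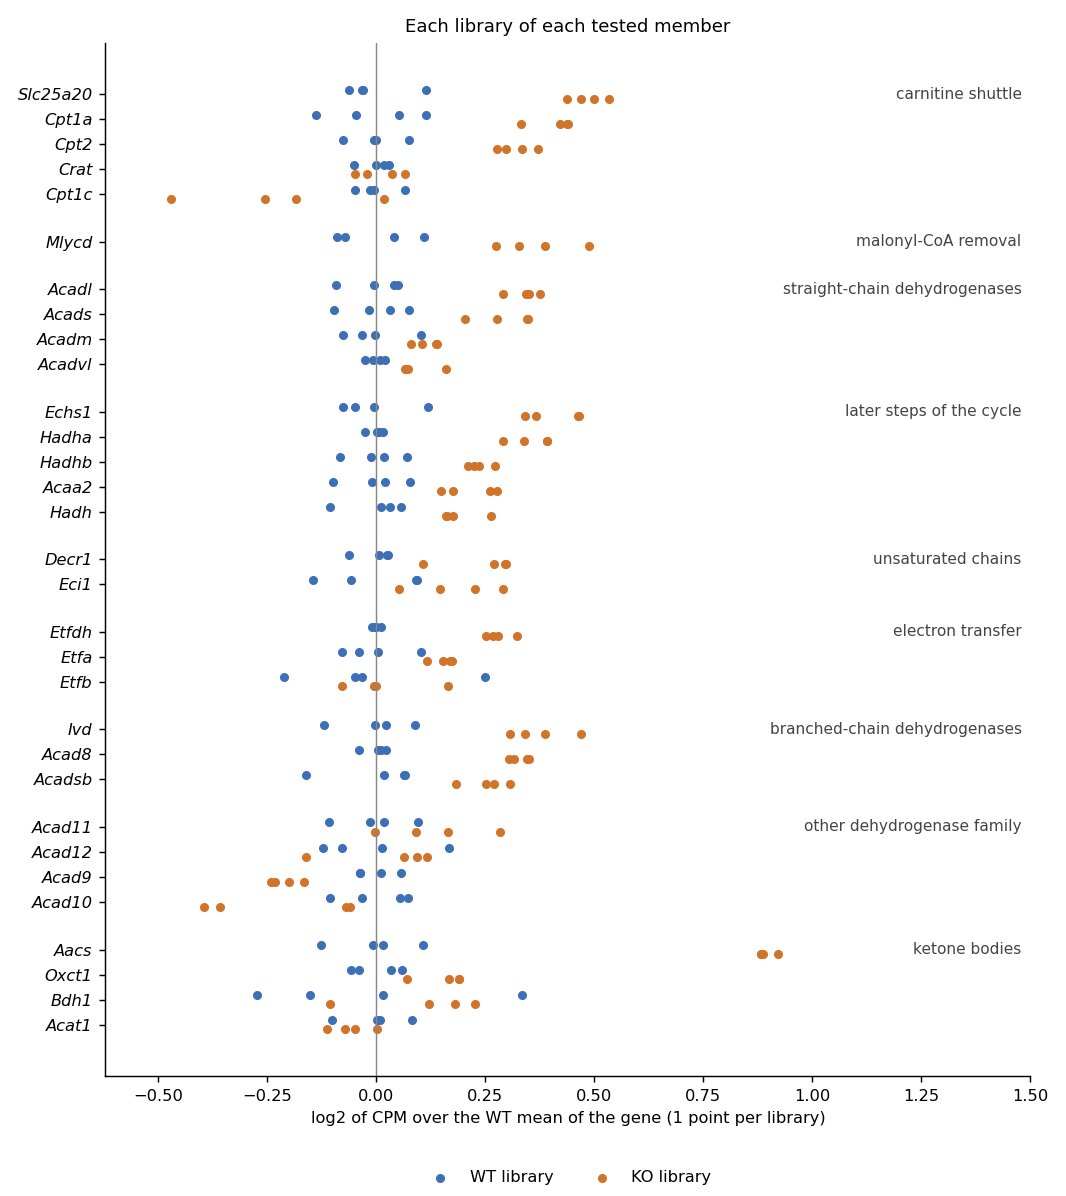
Each point is 1 library, placed by the log2 of its CPM over the WT mean of the gene (horizontal axis), with WT libraries above and KO libraries below the line of each of the 31 tested genes. The KO points lie to the right of all WT points in 20 genes, Acad9 is the gene with all KO points to the left, and Etfb and Bdh1 show widely scattered WT points.

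The carnitine shuttle rose in 3 of its 5 tested members, those that act in turn on a long-chain fatty acid. Cpt1a, the outer-membrane enzyme that links the fatty acid to carnitine and is the step blocked by malonyl-CoA, had 580.5, 519, 556 and 487 CPM in WT and 675, 717, 725 and 727 CPM in KO libraries. The groups did not overlap, and the log2 fold change was 0.41 (SE 0.05, edgeR adjusted p = 1.584e-05). Cpt1a lies on chromosome 19, and centred on that chromosome it had a value of -0.10 (adjusted p = 0.1442), so its rise was no larger than the median of that chromosome. Slc25a20, the translocase that carries acylcarnitine across the inner membrane, had 52.6, 53.8, 53.7 and 59.4 CPM in WT and 79.5, 77.6, 76.0 and 74.3 CPM in KO libraries. It was 1.40-fold higher in KO cells, the second largest step of the module (log2 fold change 0.49, SE 0.06, edgeR adjusted p = 3.126e-06), and on chromosome 9 centring hardly moved it (0.50). Cpt2, which returns the fatty acid to coenzyme A in the matrix, rose from 56.4 ± 2.42 to 70.5 ± 2.06 CPM (mean ± SD, n = 4 in each group throughout), a log2 fold change of 0.32 (edgeR adjusted p = 1.448e-04).

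The remaining carnitine acyltransferases showed no rise. Crat, which moves acetyl groups between coenzyme A and carnitine, had a mean of 59.9 ± 1.43 CPM in the WT group and of 60.3 ± 2.17 CPM in the KO group, and the 95% interval of its log2 fold change ran from -0.10 to 0.12. Cpt1c, the isoform known from neurons, had 17.6 to 19.1 CPM in WT and 13.2, 15.3, 16.1 and 18.5 CPM in KO libraries, with overlapping groups (log2 fold change -0.21, edgeR adjusted p = 0.08617). Cpt1b, the muscle isoform, had 2 to 12 counts per library and was not tested, and its whole span also lies in Gm44502, a protein-coding gene on the same strand with 0 counts. Per kilobase of gene length, Cpt1a made up 97.4 ± 0.132% of the transcripts of the 3 Cpt1 genes in WT and 98.3 ± 0.221% in KO cells, and Cpt1c 2.55 ± 0.159% and 1.67 ± 0.181%. With the length of the canonical transcript (GENCODE vM39) in place of the table's gene length, the Cpt1c share was 7.41 ± 0.440% and 4.92 ± 0.515%, and KO libraries stayed below WT libraries. After centring, Cpt1a was -0.10 and Cpt1c -0.24, and the change of these shares cannot be told apart from the shift of chromosome 19. Mlycd, which removes malonyl-CoA, rose from 26.0 ± 1.71 to 33.7 ± 2.15 CPM (log2 fold change 0.37, edgeR adjusted p = 4.5e-04), with all KO libraries above all WT libraries.

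The dehydrogenases of straight-chain fatty acids open each turn of the cycle, and 2 of the 4 rose. Acadl, which acts on long chains, was the most abundant of the 32 genes per kilobase in both groups and had 416, 456, 441 and 459 CPM in WT and 562, 575, 565 and 542 CPM in KO libraries. Its groups did not overlap, and its log2 fold change was 0.34 (SE 0.05, edgeR adjusted p = 1.589e-05). Acads, the short-chain enzyme, rose from 114 ± 5.76 to 140.2 ± 6.58 CPM (log2 fold change 0.30, edgeR adjusted p = 3.053e-04). Acadvl, the membrane-bound enzyme of very long chains, had 97.8, 99.0, 99.9 and 96.7 CPM in WT and 103, 110.0, 103.5 and 103.2 CPM in KO libraries. Its KO libraries were all higher, by a log2 fold change of 0.09 with an edgeR adjusted p of 0.1216, and 2119 of its 5229 bases overlap Dvl2 on the opposite strand.

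Acadm, the medium-chain dehydrogenase, stood at the threshold. It had 309.8, 300.5, 316 and 340.5 CPM in WT and 349, 335, 341 and 349 CPM in KO libraries, so that WT library 4 lay inside the KO range. Its log2 fold change was 0.12 (SE 0.05, edgeR adjusted p = 0.0572), it passed the threshold with DESeq2 (adjusted p = 0.03587), and without WT library 4 it was 0.16 (edgeR adjusted p = 0.01036). Centred on chromosome 3 it was 0.34 (adjusted p = 3.172e-05). The ratio of Acadl to Acadm per kilobase was 2.73 ± 0.159 in WT and 3.19 ± 0.133 in KO cells, and that of Acadl to Acadvl was 6.03 ± 0.286 and 7.17 ± 0.169, each with all KO libraries above all WT libraries. With canonical transcript lengths the ratio to Acadm was 1.15 ± 0.0670 and 1.35 ± 0.0560 and that to Acadvl 3.98 ± 0.189 and 4.73 ± 0.112, again without overlap. Acadl lies on chromosome 1 and Acadm on chromosome 3, and after centring both stood at 0.34. The higher ratio of Acadl to Acadm in KO cells cannot be told apart from the shift of chromosome 3.

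**Figure D3:**
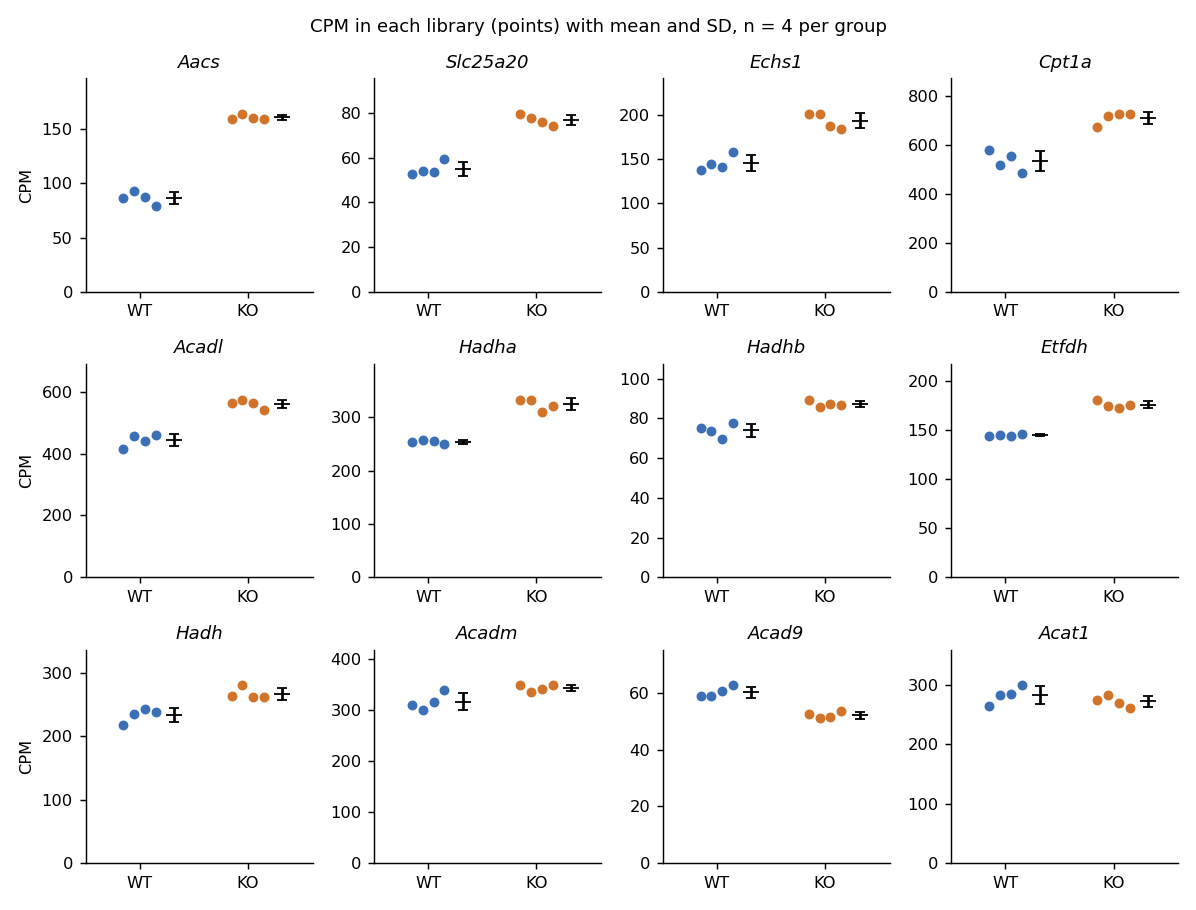
The vertical axes give CPM from 0 for 12 genes, with 1 point per library and the group mean with its SD to the right of the points (n = 4). Aacs shows the widest gap between the groups, the 4 WT points of Etfdh lie almost on each other, Acad9 is the gene whose KO points are all lower, and the groups overlap in Acadm and Acat1.

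The later steps of the cycle rose in all 5 of their members by edgeR. Echs1, the hydratase of short chains, had 138, 145, 141 and 158 CPM in WT and 201, 201, 188 and 185 CPM in KO libraries, a log2 fold change of 0.41 without overlap (SE 0.05, edgeR adjusted p = 1.342e-05). Hadh, the hydroxyacyl-CoA dehydrogenase of short and medium chains, had 217, 236, 243 and 239 CPM in WT and 264, 281, 262 and 262 CPM in KO libraries. It rose by 0.19 on the log2 scale (SE 0.05, edgeR adjusted p = 4.692e-03) and stood 0.41 above the median of chromosome 3 (adjusted p = 5.639e-06). Acaa2, the thiolase that ends the turn, rose from 127 ± 6.49 to 148 ± 6.38 CPM (log2 fold change 0.22, edgeR adjusted p = 3.246e-03).

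Hadha and Hadhb encode the α and β subunits of the mitochondrial trifunctional protein, which carries out these steps on long chains, and the pair lies head to head on chromosome 5. Hadha had 254, 256, 255 and 249 CPM in WT and 333, 333, 310.0 and 320.7 CPM in KO libraries, and Hadhb 75.0, 73.5, 69.9 and 77.8 CPM in WT and 89.5, 85.7, 87.2 and 86.6 CPM in KO libraries. Neither gene's groups overlapped. The log2 fold changes were 0.35 for Hadha (SE 0.04, edgeR adjusted p = 7.033e-06) and 0.24 for Hadhb (SE 0.05, adjusted p = 1.215e-03). Per kilobase of gene length the ratio of Hadha to Hadhb was 2.56, 2.63, 2.75 and 2.42 in WT and 2.81, 2.93, 2.68 and 2.80 in KO libraries, with overlap between the groups. In the table, which uses GRCm38 positions, Hadha (minus strand, 30118304 to 30155162) ends 85 bases before Hadhb (plus strand, 30155248 to 30184593), and RefSeq on GRCm38.p6 places the starts 272 bases apart. That stretch is shown because it is the shared promoter region of the pair, read on the strand of Hadhb at chr5:30154981-30155252, with the GC boxes GGGCGG of the Sp1 factors in capitals.
Hadha to Hadhb: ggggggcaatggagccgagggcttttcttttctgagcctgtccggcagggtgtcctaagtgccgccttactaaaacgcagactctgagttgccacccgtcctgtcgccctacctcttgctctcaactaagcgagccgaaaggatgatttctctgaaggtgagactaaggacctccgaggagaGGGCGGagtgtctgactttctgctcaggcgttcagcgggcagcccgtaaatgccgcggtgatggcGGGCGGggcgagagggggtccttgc

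Both auxiliary enzymes of unsaturated chains rose. Decr1, the dienoyl-CoA reductase, went from 42.6 ± 1.22 to 50.5 ± 3.08 CPM (log2 fold change 0.25, edgeR adjusted p = 3.268e-03). Eci1, the enoyl-CoA isomerase, had 53.1, 62.6, 56.4 and 62.5 CPM in WT and 71.8, 68.6, 65.0 and 60.8 CPM in KO libraries. Its groups overlapped, its log2 fold change was 0.18 (edgeR adjusted p = 0.0405), and the call was lost without WT library 1 (0.14, adjusted p = 0.1122), WT library 3 (0.17, 0.09954), KO library 1 (0.15, 0.1181), KO library 2 (0.17, 0.08401) or KO library 3 (0.20, 0.06096).

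The electrons of every acyl-CoA dehydrogenase pass to ETF, a dimer of Etfa and Etfb, and from there to ubiquinone through Etfdh. Etfdh had 144, 145, 144 and 146 CPM in WT and 181, 174, 172 and 176 CPM in KO libraries. It rose by 0.28 on the log2 scale (SE 0.04, edgeR adjusted p = 6.936e-05) and lay 0.50 above the median of chromosome 3 (adjusted p = 1.698e-07). Etfa had 163, 167, 172.5 and 185 CPM in WT and 193, 194, 191 and 186.5 CPM in KO libraries, a rise of 0.15 (edgeR adjusted p = 0.01837) that was lost without WT library 2 (0.14, adjusted p = 0.05662). Etfb stood at 12.7 ± 1.73 CPM in WT and at 12.9 ± 0.943 CPM in KO libraries (95% interval of the log2 fold change -0.20 to 0.25). Per kilobase, Etfa exceeded its partner Etfb 8.68 ± 0.701-fold in WT and 9.45 ± 0.671-fold in KO cells. Nearly the whole span of Etfb, 13673 of 13718 bases, is also annotated as Gm45233, a protein-coding gene on the same strand with 0 counts, and the sources used here do not give the rule for reads that fall in both.

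The dehydrogenases of the branched-chain amino acids share the electron carrier with the fatty acid enzymes, and all 3 rose without overlap by edgeR. Ivd, which acts in leucine breakdown, went from 46.7 ± 2.80 to 60.7 ± 2.97 CPM (log2 fold change 0.38, edgeR adjusted p = 1.043e-04). Acad8, of the valine pathway, went from 34.4 ± 0.645 to 43.2 ± 0.664 CPM (0.33, adjusted p = 1.212e-04). Acadsb, of the isoleucine pathway, went from 48.7 ± 3.50 to 58.1 ± 2.09 CPM (0.25, adjusted p = 3.328e-03). Acadsb lies wholly inside the span of Fgfr2 on the opposite strand, a gene with a mean of 1890 counts against 867 for Acadsb, and the sources used here do not give the strand setting of the counting.

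The 4 other members of the dehydrogenase family did not share the rise. Acad9, known for its part in the assembly of respiratory complex I, had 58.9, 58.9, 60.8 and 62.8 CPM in WT and 52.6, 51.1, 51.5 and 53.8 CPM in KO libraries, the reverse order of most members. It fell by 0.21 on the log2 scale (SE 0.05, edgeR adjusted p = 4.19e-03), which was the size of the shift of chromosome 3, and centred on that chromosome it was 0.01 (adjusted p = 0.852). Acad11 had 19.9 ± 1.16 in WT and 21.9 ± 1.84 CPM in KO cells (log2 fold change 0.14, edgeR adjusted p = 0.1851), and Acad12 12.0 ± 1.08 and 12.3 ± 1.04 CPM (0.03, adjusted p = 0.8153). Acad10 had 17.1, 15.1, 15.9 and 16.9 CPM in WT and 15.6, 15.5, 12.7 and 12.4 CPM in KO libraries. Its log2 fold change of -0.22 missed the threshold (edgeR adjusted p = 0.08717), and centred on chromosome 5 it was -0.27 (adjusted p = 0.03571). Acad10 and Acad12 are neighbouring paralogs on chromosome 5, and the sources used here do not say how reads matching both were counted.

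The site of nuclear respiratory factor 1, searched as GCGCA followed directly by its reverse complement, was found in the RefSeq promoter window (250 bases before to 50 after the start) of 3 of the 26 members that have one, and in that of 1.07% of all genes. The holders were Etfdh, which rose, and the paralogs Acad10 and Acad12, which did not, and the 60 bases around the site are shown with the palindrome in capitals because these are the promoters with this match. They lie on the minus strand of GRCm38.p6 at chr3:79628861-79628920 for Etfdh, chr5:121660484-121660543 for Acad10 and chr5:121618948-121619007 for Acad12.
Etfdh: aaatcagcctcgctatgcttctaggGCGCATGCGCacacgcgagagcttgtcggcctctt
Acad10: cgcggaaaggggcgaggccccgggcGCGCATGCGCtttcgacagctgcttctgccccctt
Acad12: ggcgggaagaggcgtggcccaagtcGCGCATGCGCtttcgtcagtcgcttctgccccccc
Compared base by base, the stretches of Acad10 and Acad12 were identical at 48 of 60 positions (80%). A match is a description of the letters and no evidence of binding. The transcript of Nrf1 itself fell from 53.1 to 43.4 CPM (log2 fold change -0.29, edgeR adjusted p = 5.513e-04).

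Of the 4 ketone body members 2 rose, where 21.7% of all tested genes rose. With each chromosome centred on its median 1 rose, where 19.3% of all tested genes did. The larger change was in the cytosolic enzyme. Aacs, which activates acetoacetate in the cytosol for fatty acid and sterol synthesis, had 86.2, 93.4, 87.7 and 79.4 CPM in WT and 159.8, 164.1, 160.3 and 159.8 CPM in KO libraries. The KO libraries lay within a few CPM of each other and all far above the WT libraries. Its log2 fold change was 0.89 (SE 0.05, edgeR adjusted p = 2.115e-09), a 1.86-fold difference, and centred on chromosome 5 it was 0.84. Ranked with its sign, so that all falling genes lie below, this log2 fold change stood at percentile 97.25 of all tested genes. Oxct1, which takes up acetoacetate for oxidation in the mitochondria and had the third-highest level per kilobase, had 435.5, 458, 430.0 and 466 CPM in WT and 510.4, 469.8, 502.5 and 510.8 CPM in KO libraries. It rose by 0.16 (SE 0.05, edgeR adjusted p = 0.01285), and centred on chromosome 15 it was 0.05 (adjusted p = 0.4324). Acat1, the mitochondrial acetoacetyl-CoA thiolase, had 283 ± 14.7 in WT and 272 ± 9.12 CPM in KO cells (95% interval of the log2 fold change -0.16 to 0.05). Bdh1, the hydroxybutyrate dehydrogenase, had 7.61 ± 1.44 and 8.22 ± 0.808 CPM, with an interval of -0.18 to 0.40.

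The 250 bases before the RefSeq start of Aacs are shown because this gene moved most, at chr5:125475623-125475872 of GRCm38.p6 on the plus strand. The sterol element of the SREBP factors was searched as TCACNCCAC on both strands. No window of a member held it in full, as did 1.24% of all windows. Aacs had 1 match with 1 of the 8 fixed letters different, on the minus strand, 39 bases before the start and in capitals below, and such near matches stood before the start in 20.7% of all windows.
Aacs: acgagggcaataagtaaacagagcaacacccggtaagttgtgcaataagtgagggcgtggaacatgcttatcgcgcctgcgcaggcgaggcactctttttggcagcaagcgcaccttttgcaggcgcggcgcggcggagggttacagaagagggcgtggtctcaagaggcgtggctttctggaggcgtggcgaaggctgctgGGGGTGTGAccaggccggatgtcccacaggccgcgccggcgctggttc

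Of the other motifs searched on both strands, GGGCGG was in the windows of 17 of 26 members (38.2% of all genes) and CCAAT in 10 of 26 (41.1%). AAGGTCA, the half-site of steroidogenic factor 1 and of the estrogen-related receptors, was found in Acadm alone (5.38% of all genes). The PPAR site, AGGTCA repeated after 1 base (0.0481% of all genes), the cAMP elements TGACGTCA (2.03%) and TGACGCA (2.42%), and the E-box CACGTG (8.09%) were in none of the 26 windows. The absence covers these letters in these windows only, and distal elements were not searched.

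The levels of the 32 genes spanned more than 3 orders of magnitude per kilobase. With the gene lengths of the table, Acadl (221 CPM per kilobase in WT), Cpt1a (125) and Oxct1 (121) led, and Acad12 (1.84) and Cpt1b (0.0894) were lowest. The length that the table gives for Echs1 is 8286 bases, where the canonical transcript of GENCODE vM39 has 2341. With canonical lengths, an alternative chosen after the table was seen, Acadl led again (177 ± 7.80 CPM per kilobase in WT), followed by Acadm (154 ± 8.30), Hadh (131 ± 6.44) and Oxct1 (127 ± 4.96). By these lengths Hadh and Oxct1 did not differ beyond their spread, while Acadl stood clear of Acadm by more than both SDs. These SDs are between libraries and do not hold the error from the choice of length. By the lengths of the table, Acadm had 81.0 and Hadh 47.0 CPM per kilobase in WT. With canonical lengths, Cpt1a came sixth at 81.2 ± 6.21 CPM per kilobase in WT. Among the 12 genes above 100 CPM in WT, Acadm and Acat1 did not pass the threshold.

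**Figure D4:**
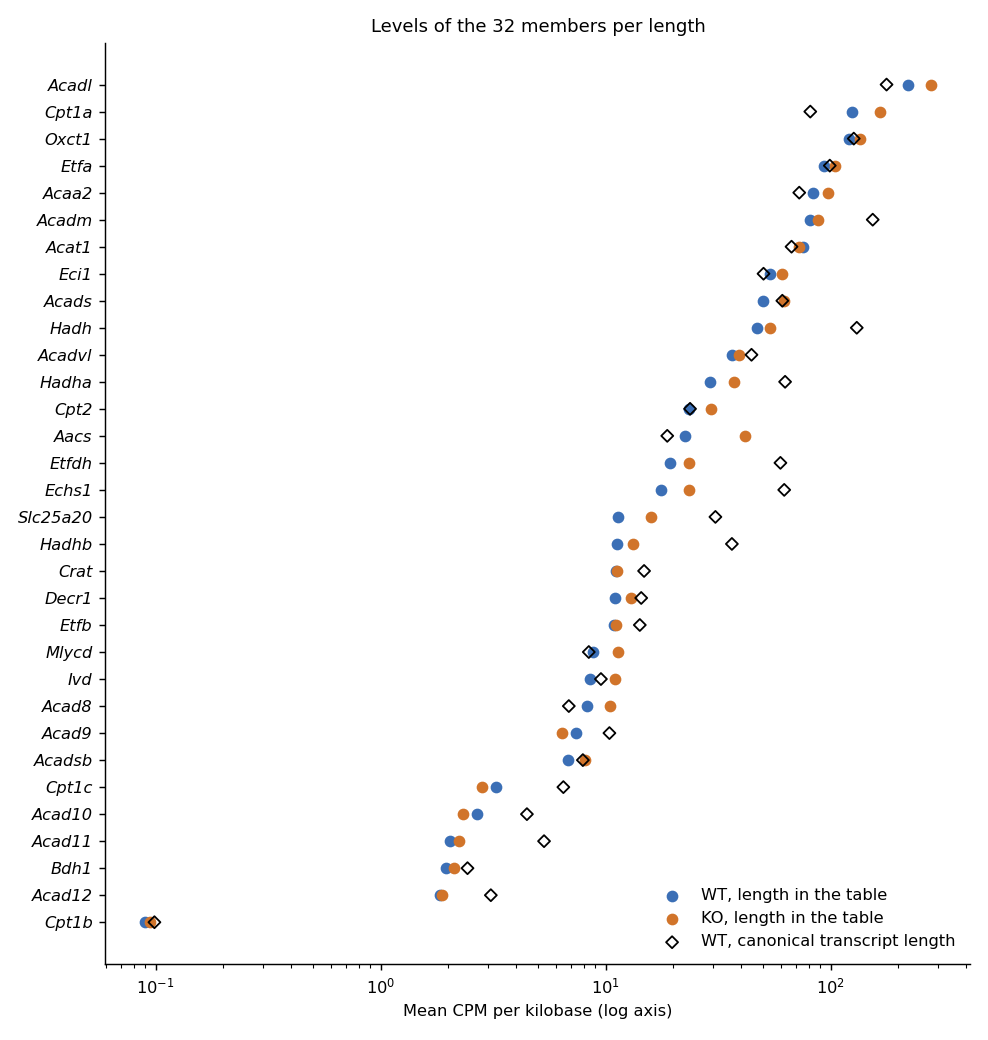
The horizontal log axis gives the mean CPM per kilobase of the 32 genes, in WT and KO cells with the gene length of the table (filled circles) and in WT cells with the canonical transcript length (open diamonds). Acadl is highest and Cpt1b lowest by both lengths, and the diamonds lie to the right of the WT circles for Hadh, Etfdh, Echs1 and Hadhb, whose listed lengths are much longer than their canonical transcripts.

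The neighbouring steps of the pathway were read from 72 further genes, of which 63 passed the filter. By edgeR, 26 of them rose (41.3%), 8 fell (12.7%) and 29 did neither, with a median log2 fold change of 0.10. Of all tested genes, 21.7% rose and 21.1% fell. Carnitine supply rose in 5 of 7 tested genes (71.4%) and fell in none. Slc22a5, the carnitine importer of the plasma membrane, had 42.6, 34.1, 49.6 and 36.7 CPM in WT and 75.3, 64.9, 82.6 and 81.0 CPM in KO libraries (log2 fold change 0.90, SE 0.10, edgeR adjusted p = 2.706e-06). Its paralog Slc22a21 went from 4.41 to 6.96 CPM (0.66, adjusted p = 2.854e-03), and Shmt1, a serine hydroxymethyltransferase, from 39.0 to 52.7 CPM (0.44, adjusted p = 1.953e-04). The breakdown of branched-chain amino acids and propionate, the pathway around Ivd, Acad8 and Acadsb, rose in 9 of 19 tested genes (47.4%) and fell in none. Pcca, a subunit of propionyl-CoA carboxylase, had 47.4 to 49.6 CPM in WT and 80.2 to 89.4 CPM in KO libraries (log2 fold change 0.82, edgeR adjusted p = 5.771e-09). Ppm1k, the phosphatase that switches on branched-chain ketoacid breakdown, rose by 0.40 (adjusted p = 2.984e-03), and Mmut, methylmalonyl-CoA mutase, by 0.37 (adjusted p = 1.275e-04).

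Ketone body synthesis and transport moved both ways, with 2 genes higher (33.3%) and 3 lower (50%) of 6 tested by edgeR. Of all tested genes, 21.7% were higher and 21.1% lower. Slc16a1, a carrier of lactate and ketone bodies, went from 497 ± 12.0 to 340.1 ± 7.79 CPM (log2 fold change -0.55, edgeR adjusted p = 4.251e-08) and was -0.32 after centring on chromosome 3. Oxct2a, a paralog of Oxct1 known from testis, went from 2.18 to 1.02 CPM (-1.10, adjusted p = 2.252e-03).

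Thioesterases and other acyl-CoA enzymes rose in 3 (27.3%) and fell in 2 (18.2%) of 11 tested genes by edgeR. These shares were near the 21.7% and 21.1% of all tested genes. Acsf2, an acyl-CoA synthetase, went from 178 ± 8.73 to 279 ± 21.4 CPM (log2 fold change 0.65, adjusted p = 2.447e-07), and Nudt7, a coenzyme A hydrolase of peroxisomes, from 5.85 to 7.87 CPM (0.43, adjusted p = 0.01375). Acot7, a thioesterase, went from 222 to 172 CPM (-0.37, edgeR adjusted p = 7.924e-05). Of 20 tested regulators, 7 rose (35%) and 3 fell (15%). Ppara, the nuclear receptor that drives fatty acid oxidation genes in liver, had 6.44 to 8.87 CPM in WT and 30.8 to 37.3 CPM in KO libraries (log2 fold change 2.14, SE 0.11, edgeR adjusted p = 2.684e-10). Acacb, the carboxylase that makes malonyl-CoA at the mitochondrial surface, rose by 0.55 (adjusted p = 2.935e-06). Esrra, an estrogen-related receptor, rose by 0.52 (edgeR adjusted p = 4.383e-06) and was 0.01 after centring on chromosome 19 (adjusted p = 0.9089).

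Beside related pathways, the share of members that rose, 64.5%, was close to that of fatty acid synthesis, where 10 of 16 tested genes rose and none fell (62.5%, median log2 fold change 0.27). In peroxisomal β-oxidation 9 of 18 tested genes rose and 1 fell (50%, median 0.15), and in the tricarboxylic acid cycle, into which the acetyl-CoA of these enzymes flows, 5 of 18 rose and none fell (27.8%, median 0.02), by edgeR in each case. Over all tested genes, 21.7% rose and 21.1% fell. These shares are descriptions, and the differences between the lists were not tested.

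**Figure D5:**
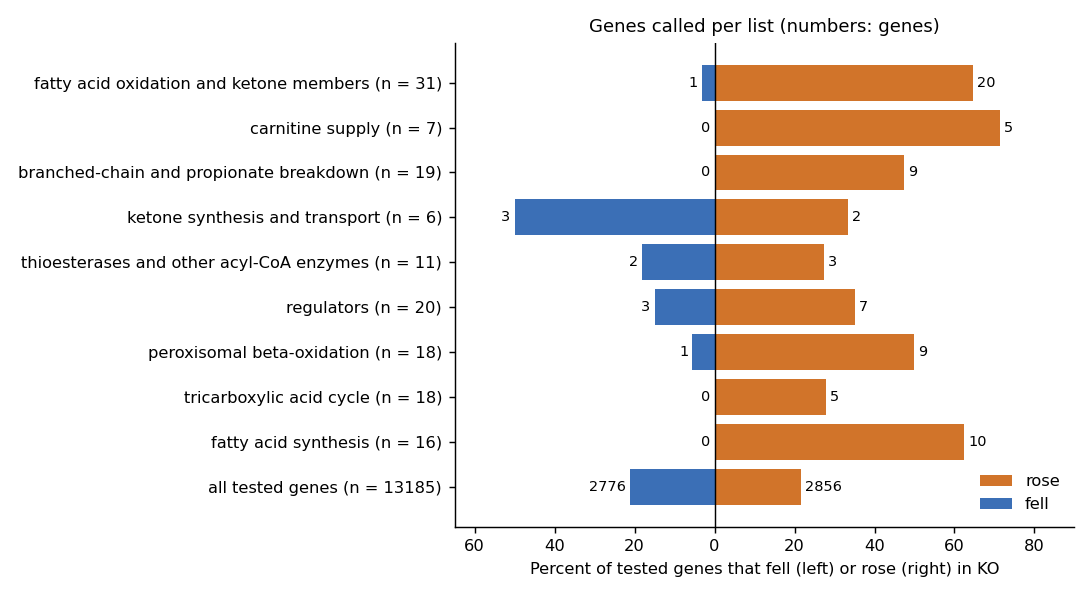
Bars give the percent of tested genes of each list that rose (right) or fell (left) in KO cells by edgeR, from 0 in the middle, with the number of genes at the end of each bar and the number tested in the labels. Of the fatty acid oxidation and ketone members 20 rose and 1 fell, as against 2856 and 2776 of 13185 genes in all, and ketone synthesis and transport is the list with more genes lower than higher.

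The steps of all rising genes except Aacs were below 0.5 on the log2 scale, and 17 of the 32 members share part of their span with another annotated gene. The data are transcript levels, and enzyme amounts and fatty acid oxidation rates were not part of these files.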

How the data were processed

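RNA was sequenced from 8 cultures of MA-10 cells (4 WT, 4 MTP KO) after poly-T selection. The authors deposited raw read counts per gene, with no normalization. Their processing notes name HISAT2 2.0.5 and featureCounts 1.5.0-p3 and list GRCh37, hg19 and mm39 with no role. The positions of 32 of 32 members overlap those of RefSeq GRCm38.p6, and the sources used here give no strand or multiple-match setting.

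Genes were filtered with filterByExpr (minimum count 10, minimum total 15), scaled by TMM and tested with the quasi-likelihood test of edgeR 4.0.16 in R 4.3.3, with genotype as the only term and Benjamini-Hochberg adjustment over 13185 genes. Rose and fell mean an adjusted p below 0.05, and the study's limit of 0.5 on the log2 scale is given separately. The common biological coefficient of variation was 7.107%. Alternatives were DESeq2 1.42.0, limma-voom 3.58.1, other filters and scalings, a replicate block, chromosome centring and leaving out each library. Same-numbered libraries had deviations correlated between -0.1518 and 0.04067, so the numbers do not pair them. No library pair of a group agreed within sampling noise (chi-square per degree of freedom 3.233 to 13.53). The procedure was tested on simulated data. Motifs were searched in RefSeq promoter windows, which 26 of 32 members have. All members were named, and of each neighbouring list the 3 called genes with the largest change and at least 1 CPM, with Nrf1 added after its value was seen and 1 gene of the neighbouring lists not reported here. Members and lists were chosen with earlier results of these data known. Figures were drawn with matplotlib 3.10.9.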

Additional observations from a re-analysis of the deposited data

Results flagged for a closer look

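In 4 genes, KO library 2 stood apart from the other KO libraries. It was the highest for Acadvl (110.0 CPM, the nearest KO library at 103.5), Hadh (280.8 against 264.3) and Aacs (164.1 against 160.3), and the lowest for Decr1 (45.91 against 51.42). The gap to the nearest library made up most of the range of the group in each. The WT and KO groups of each of the 32 members and of Mttp were screened. Chance flags about 1 in 20 groups of this size, so a few flags would arise by chance alone. No WT group was marked in this way. Without KO library 2, the calls of all 4 genes were the same by edgeR.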

How the results depend on the processing

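Over 17 alternatives, 499 of 527 values kept their call, 11 lost it, 8 gained it and 9 changed sign, and 20 members were the same in all. A test against 0.5 on the log2 scale was also run and is not among the 17. All rising members except Aacs had steps below that limit. With the replicate block, 18 members were higher, as Eci1 (0.18, edgeR adjusted p = 0.08824) and Etfa (0.16, 0.05401) missed the threshold. Leaving out 1 library at a time gave 19 to 21 members higher, 1 to 2 lower (2 without KO library 4, which added Cpt1c at -0.29, adjusted p = 0.02122) and 1 to 2 higher past 0.5 (2 without WT library 4 or KO library 4, which added Slc25a20). Chromosome centring gave 3 past 0.5 and turned Cpt1a (-0.10), Acad9 (0.015) and Acad12 (-0.023). Crat, near 0, was -0.00095 with total counts, -0.0015 with at least 10 counts in every library and -0.0038 to 0.029 with 1 library left out, where Etfb ran from -0.041 to 0.12. With canonical lengths the Cpt1a share was 92.5% in WT and 94.99% in KO cells, that of Cpt1c 7.41% and 4.92%, and the ratios were 1.73 and 1.87 for Hadha over Hadhb, 7.05 and 7.68 for Etfa over Etfb, 1.15 and 1.35 for Acadl over Acadm, and 3.98 and 4.73 for Acadl over Acadvl. The cause of these changes was not tested. Cpt1b, at 2 to 12 counts per library, was too shallow to test.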
